A study of Mus musculus with 6 samples.

Results

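The EphA receptors and their ephrin-A ligands are described here through the 10 members chosen by gene symbol: the receptor genes Epha3, Epha4, Epha5, Epha6, Epha7 and Epha8 and the ligand genes Efna2, Efna3, Efna4 and Efna5. All 10 were found among the 36291 gene rows of the deposited count table, and all 10 passed the filter on low counts. The study compared 3 KO libraries, in which Sip1 (gene Zeb2) was deleted with an Nkx2-1-iCre driver, with 3 WT libraries. The RNA came from eGFP-positive cells that had been targeted by Nkx2-1-iCre and were taken by fluorescence sorting from the telencephalon of mouse embryos of the Swiss strain at E14.5, so the driver and the green label are common to both genotypes. The Nkx2-1 driver acts in ventral forebrain lineages such as that of the medial ganglionic eminence, where many cortical interneurons arise, so the libraries report on that sorted lineage and not on the whole telencephalon. The labels state neither the deleted part of Zeb2 nor the number of embryos behind a library.

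Eph receptors are receptor tyrosine kinases that are activated when a cell touches another cell carrying an ephrin. EphA receptors mostly bind ephrin-A proteins, which are held on the cell surface by a lipid (GPI) anchor, and the contact can signal into both cells: forward through the receptor, often collapsing the leading process, and in reverse through the ephrin with the help of membrane partners. In the embryonic forebrain EphA and ephrin-A proteins are known for guiding axons in topographic maps and for steering interneurons that leave the medial ganglionic eminence.

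Of the 10 members, 2 rose in KO cells (Epha3 and Efna5), 1 fell (Epha5) and 7 were not called by edgeR at an adjusted p under 0.05. Over all 13835 genes tested the same threshold called 6.27%, with 3.64% called higher and 2.62% called lower. With the K number in the library names as a block the members gave 4 calls higher (Epha6 and Epha8 in addition) and 1 lower, against 6.13% of all genes called higher and 4.45% called lower, 10.6% in all, in that fit. The KO and WT libraries did not overlap for 5 of the 10 members, compared with 23.2% of all tested genes, with KO higher for 3 of the members (11.8% of all genes) and lower for 2 (11.4%). The median log2 fold change of the members was -0.03 and that of all tested genes -0.01.

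The proximal promoters of the 3 called members are shown because Zeb2 is a zinc finger factor known to bind CACCT sequences. They are taken from the RefSeq promoter table of build GRCm38.p6, in which all 10 members have at least 1 entry, and run from 250 bases before an annotated start to 50 bases from it. Each is given 5′ to 3′ on the strand of its gene, in lower case, with CACCT or its reverse complement AGGTG in capitals. The Epha5 promoter lies at chr5:84417333-84417632 on the minus strand.
Epha5: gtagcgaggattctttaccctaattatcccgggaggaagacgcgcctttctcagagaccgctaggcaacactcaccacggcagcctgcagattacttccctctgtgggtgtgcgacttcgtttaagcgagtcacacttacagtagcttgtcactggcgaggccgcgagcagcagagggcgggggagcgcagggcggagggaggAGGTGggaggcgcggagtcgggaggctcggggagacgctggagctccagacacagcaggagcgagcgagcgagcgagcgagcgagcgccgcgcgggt
The Efna5 promoter lies at chr17:62881268-62881567 on the minus strand.
Efna5: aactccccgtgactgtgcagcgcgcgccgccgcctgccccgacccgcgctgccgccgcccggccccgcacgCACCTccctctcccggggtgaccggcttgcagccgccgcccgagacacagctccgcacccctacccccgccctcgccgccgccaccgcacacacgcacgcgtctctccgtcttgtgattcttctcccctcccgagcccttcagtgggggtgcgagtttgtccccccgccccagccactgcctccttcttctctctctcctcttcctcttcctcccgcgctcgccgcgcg
The Epha3 promoter lies at chr16:63864126-63864425 on the minus strand and holds no match, so it has no capitals.
Epha3: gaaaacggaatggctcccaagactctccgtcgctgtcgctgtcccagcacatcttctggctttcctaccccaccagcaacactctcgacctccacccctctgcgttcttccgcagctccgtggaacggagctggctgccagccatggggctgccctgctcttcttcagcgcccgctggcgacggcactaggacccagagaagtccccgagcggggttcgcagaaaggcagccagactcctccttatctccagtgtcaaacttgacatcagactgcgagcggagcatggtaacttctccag
Counting from the annotated start, with -1 as the base before it, the match begins at -47 in Epha5 and at -179 in Efna5. The remaining match among the members was in 1 of 2 promoters of Efna3, at -164. CACCT on either strand was found in 51.9% of the 32851 promoters in the table. The longer CACCTG, which contains CACCT, was found in 20.2% of them and in none of the members' promoters. These are matches of letters in a window and not measured binding. The members' promoters ranged from 55.7% GC in Efna4 to 84.3% in Epha8, all above the table's median of 52.7%.

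The libraries held 8323531 to 11069437 reads assigned to genes, and each genotype has 1 library of each number K77, K79 and K80, whose meaning the labels do not give. Levels are in CPM, counts scaled to a common library size by TMM. Zeb2 stood at 308 ± 35.6 CPM in KO and 662 ± 133 CPM in WT libraries (SD, n = 3 each), a log2 fold change of -1.11 (edgeR adjusted p = 0.00116). The WT K79 library stood apart in sex-linked genes. It held 26109 counts of Xist and 0 of the Y-linked gene Eif2s3y, whereas the other libraries held 13 to 28 counts of Xist and 823 to 1276 of Eif2s3y. Without WT K79 the called members kept their calls and Epha8 was called as well. The summed level of 6 oligodendrocyte precursor markers was 50.9 to 59.3 CPM in KO and 126 to 148 CPM in WT libraries. Of these markers 5 were called lower, and none had 0 counts over all libraries together. Sox10 had 4, 3 and 0 counts in KO K77, K79 and K80, against 23 to 33 counts in WT libraries. Gpr17 had 4 to 6 counts in KO and 66 to 99 counts in WT libraries. The summed level of 9 markers of the sorted lineage was 5167 to 6048 CPM in KO and 4546 to 5147 CPM in WT libraries, with 2 called higher, 1 lower and 6 in neither direction, and none at 0. Nkx2-1, the gene whose driver defined the sort, rose to 625 ± 34.8 CPM in KO, against 384 ± 60.3 CPM in WT libraries (log2 fold change 0.70, edgeR adjusted p = 0.00301). Gad2 rose by 0.56 (edgeR adjusted p = 0.00124), Dlx5 fell by 0.45 (0.0263), and Lhx6 was not called, at 1096 CPM in KO and 1057 CPM in WT libraries. Sums for cortical glutamatergic markers (246 to 304 CPM in KO, 217 to 470 CPM in WT libraries), for striatal markers (282 to 331 CPM in KO, 216 to 324 CPM in WT libraries), for progenitor markers (1746 to 2104 CPM in KO, 1977 to 2475 CPM in WT libraries) and for vessel markers (20.4 to 32.8 CPM in KO, 18.0 to 34.9 CPM in WT libraries) overlapped between genotypes, with Isl1 of the striatal markers called higher. The part of these cell types in the results on Eph genes was not tested.

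Epha5, a neuronal receptor known from topographic mapping of axons, was the member with the largest change. It was at 250 CPM in KO K77, 243 CPM in KO K79 and 248 CPM in KO K80, against 636 CPM in WT K77, 513 CPM in WT K79 and 757 CPM in WT K80. All KO libraries lay below all WT libraries, and the KO libraries lay close together (SD 3.47 CPM) while the WT libraries were spread (SD 122 CPM, n = 3 each). The level fell 2.57-fold, a log2 fold change of -1.36 (SE 0.118, 95% interval -1.63 to -1.10, edgeR adjusted p = 0.000164). Within K numbers the log2 difference, KO minus WT, was -1.35 in K77, -1.08 in K79 and -1.61 in K80, so each pair showed the fall. Among all tested genes, 1.21% differed by more in either direction. Epha5 was called lower in each of the 17 other fits that were run, with log2 fold changes of -1.50 to -1.22. In bulk samples such as these, fewer cells that carry a transcript and less of it per cell cannot be told apart.

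**Figure D1:**
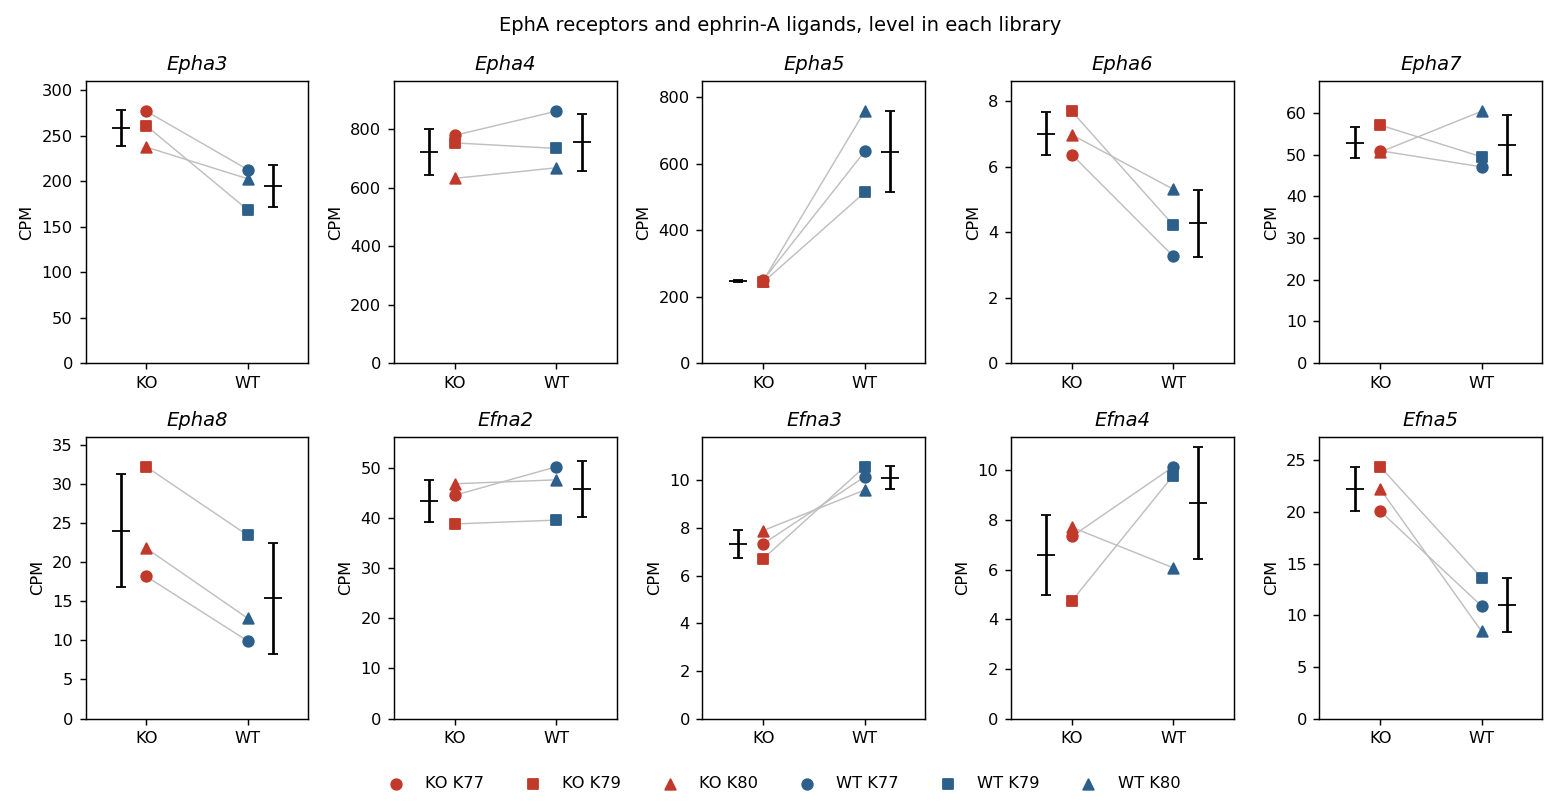
Level in CPM (y axis, from 0) of each member in the 3 KO libraries (left, red) and the 3 WT libraries (right, blue), with grey lines joining libraries of one K number and black bars giving mean and SD. Epha5 is at 243 to 250 CPM in KO and 513 to 757 CPM in WT libraries, while for Efna5 and Epha3 every KO point lies above every WT point.

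Epha3, a receptor with high affinity for ephrin-A5, moved the other way and by less. It was at 277 CPM in KO K77, 261 CPM in KO K79 and 237 CPM in KO K80, against 213 CPM in WT K77, 168 CPM in WT K79 and 203 CPM in WT K80. Each KO library was above each WT library. The means were 258 ± 19.8 CPM in KO and 195 ± 23.2 CPM in WT libraries (SD, n = 3 each), and the level rose 1.33-fold, a log2 fold change of 0.41 (SE 0.0912, 95% interval 0.21 to 0.61, edgeR adjusted p = 0.0275). The log2 difference was 0.38 for K77, 0.63 for K79 and 0.23 for K80. The call was lost in 5 of the 17 other fits, those without KO K77 (edgeR adjusted p = 0.0821), without KO K79 (0.107) and without both K77 (0.0745), both K79 (0.110) or both K80 libraries (0.0696). The range over all 17 other fits was 0.000614 to 0.110 by edgeR, DESeq2 or limma voom.

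Epha4 had the highest mean CPM of the members in each genotype, though Epha5 exceeded it in WT K80 (757 CPM), and showed no call. The EphA4 receptor binds ephrins of both classes and is expressed in migrating interneurons. Epha4 was at 779 CPM in KO K77, 753 CPM in KO K79 and 632 CPM in KO K80, against 861 CPM in WT K77, 734 CPM in WT K79 and 668 CPM in WT K80. The genotypes overlapped. The log2 fold change was -0.06 (SE 0.103, edgeR adjusted p = 0.811), and its 95% interval ran from -0.30 to 0.17.

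Epha7, a receptor with both full-length and kinase-truncated forms, was likewise not called. It was at 51.0 CPM in KO K77, 57.1 CPM in KO K79 and 50.7 CPM in KO K80, against 47.1 CPM in WT K77, 49.5 CPM in WT K79 and 60.5 CPM in WT K80. WT K80 was the highest of the libraries and WT K77 the lowest. The log2 fold change was 0.01 (95% interval -0.22 to 0.25, edgeR adjusted p = 0.965). The counts are per gene, so the forms could not be separated.

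Epha6 and Epha8, both less abundant, had higher means in KO cells without passing the threshold. Epha6 was at 6.37 CPM in KO K77, 7.70 CPM in KO K79 and 6.98 CPM in KO K80, against 3.27 CPM in WT K77, 4.22 CPM in WT K79 and 5.32 CPM in WT K80. The genotypes did not overlap, but the values rest on 53 to 78 counts in KO and 30 to 56 counts in WT libraries. The Epha6 log2 fold change was 0.71 (SE 0.205, 95% interval 0.25 to 1.17, edgeR adjusted p = 0.0771), and the edgeR adjusted p was 0.0445 with the K number as a block and 0.0496 with no filter on low counts.

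Epha8 followed the K number in both genotypes. It was at 18.2 CPM in KO K77, 32.2 CPM in KO K79 and 21.8 CPM in KO K80, against 9.92 CPM in WT K77, 23.4 CPM in WT K79 and 12.8 CPM in WT K80. The K79 library was the highest of each genotype, and the WT K79 level exceeded those of KO K77 and KO K80, so the genotypes overlapped, while within each number the KO library was higher (log2 differences of 0.87 for K77, 0.46 for K79 and 0.76 for K80). The unblocked log2 fold change was 0.64 (SE 0.296, 95% interval -0.02 to 1.30, edgeR adjusted p = 0.288), and with the block it was 0.67 (edgeR adjusted p = 0.00497). Without WT K79 it was 1.08 (edgeR adjusted p = 0.0276), and over all 17 other fits the adjusted p ranged from 0.00497 to 0.685. The authors' deposited table called Epha8 higher, with a log2 fold change of 0.64 and an adjusted p of 0.00148, in a table that called 1202 of its 36291 rows (3.31%). Those rows include genes below the count filter, so this share cannot be set against the 6.27% of 13835 genes called by edgeR. That table also called Epha3, Epha5 and Efna5, with the same direction as edgeR.

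Efna5, the gene of a ligand that repels migrating interneurons and growing axons, rose 2.02-fold. It was at 20.1 CPM in KO K77, 24.4 CPM in KO K79 and 22.2 CPM in KO K80, against 10.9 CPM in WT K77, 13.6 CPM in WT K79 and 8.45 CPM in WT K80. No KO library overlapped a WT library, and the values rest on 167 to 247 counts in KO and 89 to 142 counts in WT libraries. The log2 fold change was 1.02 (SE 0.167, 95% interval 0.64 to 1.39, edgeR adjusted p = 0.00531). Each pair showed the rise, by 0.87 for K77, 0.83 for K79 and 1.38 for K80. It was called without any single library (edgeR adjusted p 0.00178 to 0.0343) and missed the threshold in 1 of the 17 other fits, that without both K80 libraries (edgeR adjusted p = 0.0564).

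Efna2, which encodes a ligand that patterns topographic maps together with ephrin-A5, was the most abundant ligand gene and was not called. It was at 44.5 CPM in KO K77, 38.8 CPM in KO K79 and 46.8 CPM in KO K80, against 50.2 CPM in WT K77, 39.5 CPM in WT K79 and 47.6 CPM in WT K80. The K79 library was the lowest of each genotype. The log2 fold change was -0.08 (95% interval -0.32 to 0.16, edgeR adjusted p = 0.786).

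Efna3 and Efna4 had lower means in KO cells but did not pass the threshold. Efna3 encodes a ligand known on astrocytes in the hippocampus, where it meets EphA4 on dendritic spines, and was at 7.34 CPM in KO K77, 6.71 CPM in KO K79 and 7.89 CPM in KO K80, against 10.1 CPM in WT K77, 10.6 CPM in WT K79 and 9.59 CPM in WT K80. The genotypes did not overlap, with a log2 fold change of -0.46 (SE 0.142, 95% interval -0.78 to -0.15, edgeR adjusted p = 0.0968). Efna4, whose ligand is known from boundaries in the developing skull, was at 7.34 CPM in KO K77, 4.74 CPM in KO K79 and 7.71 CPM in KO K80, against 10.1 CPM in WT K77, 9.79 CPM in WT K79 and 6.08 CPM in WT K80. WT K80 fell among the KO libraries, and the log2 fold change was -0.39 (SE 0.245, 95% interval -0.94 to 0.16, edgeR adjusted p = 0.462). Efna3 and Efna4 are neighbours on chromosome 3, next to Efna1. In the GENCODE M21 annotation each overlaps an antisense gene, by 344 exon bases for Efna3 and 168 for Efna4, and the sources used here do not state whether strand was used in counting, so reads from both strands there cannot be told apart.

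**Figure D2:**
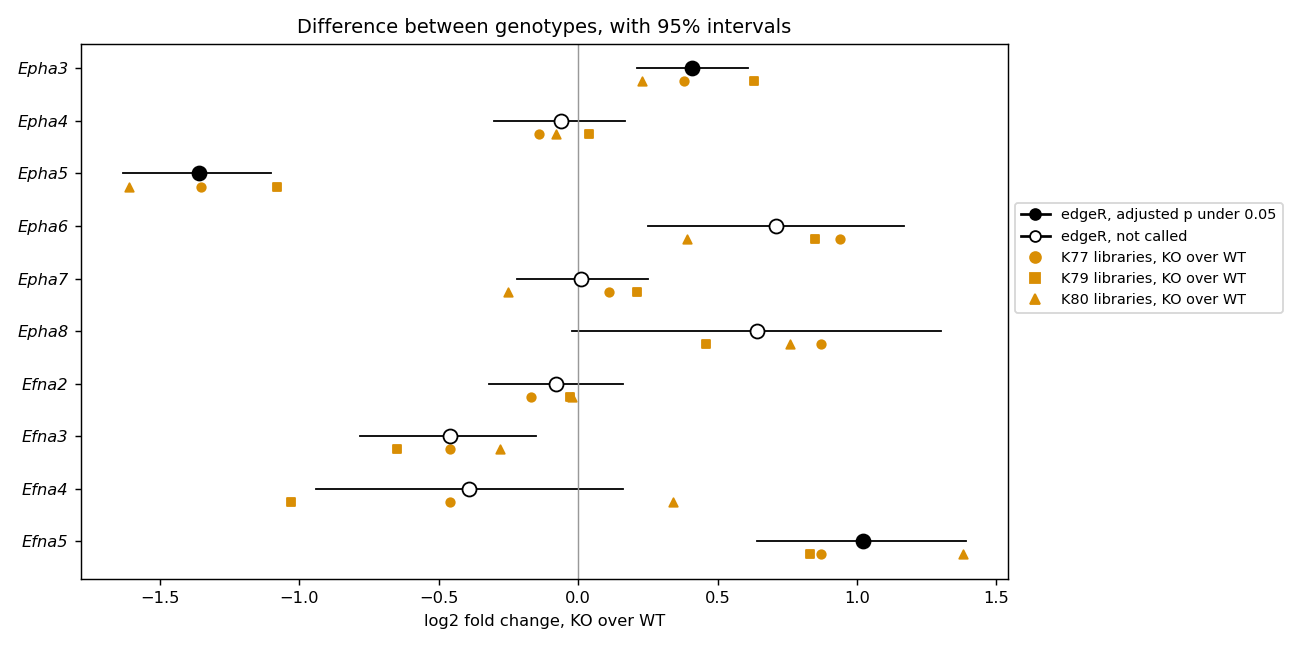
Log2 fold change of each member, KO over WT (x axis), as the edgeR estimate with its 95% interval (circles and bars, filled where the adjusted p is under 0.05) and, below it, the difference within each K number (orange). Epha5 lies at -1.36 with every pair below 0, Efna5 at 1.02 and Epha3 at 0.41 with every pair above 0.

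Summed over the 6 receptor genes, the level was 1310 ± 99.5 CPM in KO and 1656 ± 145 CPM in WT libraries (SD, n = 3 each). Without Epha5 the other receptors summed to 1063 ± 100 CPM in KO and 1021 ± 99.2 CPM in WT libraries. The 4 ligand genes summed to 79.48 ± 4.99 CPM in KO and 75.5 ± 5.14 CPM in WT libraries, and without Efna5 to 57.3 ± 6.29 CPM in KO and 64.5 ± 5.39 CPM in WT libraries. The receptor sums of the genotypes did not overlap, while the ligand sums did.

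To compare genes with one another, levels were divided by the summed exon length in the GENCODE M21 annotation, which is of a later build than the mm9 of the submitters' processing notes, so these per-length levels are approximate. Per kb of exon, Epha4 led in both genotypes with 114 ± 12.4 CPM per kb in KO and 119 ± 15.5 CPM per kb in WT libraries. Epha3 followed in KO libraries (41.0 ± 3.15 CPM per kb in KO, 30.9 ± 3.69 CPM per kb in WT), whereas Epha5 followed in WT libraries (24.5 ± 0.342 CPM per kb in KO, 62.9 ± 12.1 CPM per kb in WT). The order of these 2 receptors was therefore opposite between genotypes, and it held in every library. Efna2 came next in both genotypes, with 20.3 ± 1.93 CPM per kb in KO and 21.5 ± 2.60 CPM per kb in WT libraries. Epha7 was at 6.99 ± 0.481 CPM per kb in KO and 6.91 ± 0.940 CPM per kb in WT libraries, and Epha8 at 5.10 ± 1.54 CPM per kb in KO and 3.27 ± 1.51 CPM per kb in WT libraries. The remaining ligands were lower than Efna2, Efna5 at 5.51 ± 0.533 CPM per kb in KO and 2.73 ± 0.643 CPM per kb in WT libraries. Among the ligands it was followed in KO libraries by Efna4 (4.12 ± 1.01 CPM per kb in KO, 5.42 ± 1.41 CPM per kb in WT) and Efna3 (3.09 ± 0.249 CPM per kb in KO, 4.27 ± 0.206 CPM per kb in WT). In KO libraries neighbours from Efna5 through Epha8 and Efna4 to Efna3 overlapped in their library values, and in WT libraries those from Epha7 through Efna4, Efna3 and Epha8 to Efna5 did. Epha6 was the lowest in both, with 1.79 ± 0.169 CPM per kb in KO and 1.09 ± 0.260 CPM per kb in WT libraries.

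**Figure D3:**
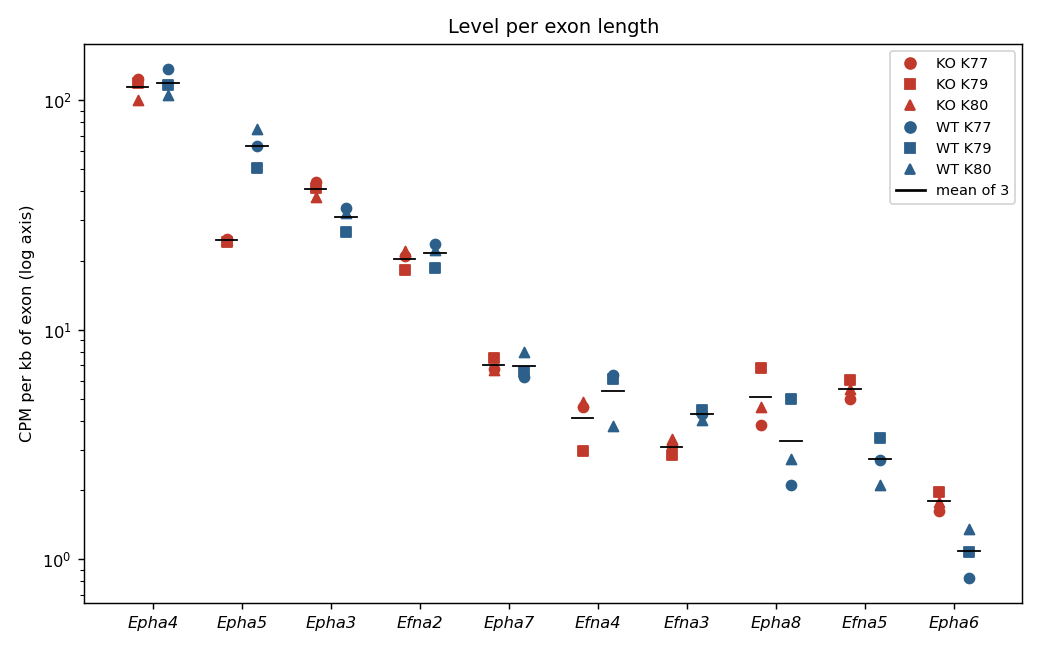
Level in CPM per kb of exon (y axis, log scale) of each member in KO (red, left) and WT libraries (blue, right), ordered by the WT mean, with a bar at each mean of 3 libraries. Epha4 is highest in both genotypes, and Epha3 lies above Epha5 in KO libraries and below it in WT libraries.

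The remaining EphA and ephrin-A genes had few reads. Epha1 had 2 to 6 counts in KO and 2 to 6 counts in WT libraries, and Epha2 had 4 to 6 counts in KO and 4 to 8 counts in WT libraries, and neither passed the filter on low counts. Epha10, a receptor without kinase activity, was at 1.78 ± 0.597 CPM in KO and 1.82 ± 1.01 CPM in WT libraries (SD, n = 3 each), with a log2 fold change of -0.08 (95% interval -1.05 to 0.89). Efna1 was at 1.43 ± 0.419 CPM in KO and 1.11 ± 0.387 CPM in WT libraries, with a log2 fold change of 0.39 (SE 0.363). Neither was called by edgeR, DESeq2 or limma voom, and 0 of the 2 had an unadjusted p under 0.05.

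Across 53 other tested genes of the pathway, from a list of 56, edgeR called 7 higher, 2 lower and 44 in neither direction, with a median log2 fold change of 0.02. Over all tested genes 3.64% were called higher and 2.62% lower. With the K number as a block, 9 were called higher and 5 lower, where the shares over all tested genes were 6.13% and 4.45%. Of the 8 EphB and ephrin-B genes, 2 rose, 1 fell and 5 did not pass. Efnb2, which encodes a transmembrane ligand that EphA4 also binds, fell to 206 ± 15.4 CPM in KO, against 359 ± 55.1 CPM in WT libraries (log2 fold change -0.80, SE 0.108, edgeR adjusted p = 0.00176). The receptor gene Ephb1 rose to 128 ± 15.7 CPM in KO, against 71.8 ± 20.04 CPM in WT libraries (log2 fold change 0.83, SE 0.167, edgeR adjusted p = 0.0159), and the ligand gene Efnb3 rose to 345 ± 36.9 CPM in KO, against 244 ± 37.4 CPM in WT libraries (0.50, SE 0.111, edgeR adjusted p = 0.0262). The Ephb1 call was lost on leaving out WT K77, KO K80 or KO K79, and that of Efnb3 on leaving out any of these or WT K80 (edgeR adjusted p up to 0.0829 and 0.130).

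Of 11 tested exchange factors and GTPase-activating proteins that act below Eph receptors, 4 rose and 7 were not called. Over all tested genes 3.64% were called higher and 2.62% lower, and 6.13% and 4.45% with the K number as a block. In the fit blocked on the K number, the same 4 were called higher and Tiam1, a Rac exchange factor gene, was called lower (log2 fold change -0.21, edgeR adjusted p = 0.0421, against 0.136 without the block). The chimaerin gene Chn2, which encodes a Rac-inactivating protein, rose to 78.4 ± 3.46 CPM in KO, against 45.7 ± 2.58 CPM in WT libraries (log2 fold change 0.78, SE 0.0741, edgeR adjusted p = 0.000263), and was called in each of the 17 other fits. Its relative Chn1, known to act below EphA4 in axon guidance, rose by 0.26 on the log2 scale (SE 0.0534), to 142 ± 2.43 CPM in KO, against 119 ± 2.80 CPM in WT libraries. Sipa1l1, a Rap regulator of dendritic spines, rose by 0.40 (SE 0.0855) and the exchange factor gene Vav3 by 0.69 (SE 0.160). Chn1, Sipa1l1 and Vav3 had edgeR adjusted p of 0.0173, 0.0219 and 0.0321, and lost their calls on leaving out 3, 4 and 4 of the 6 single libraries. Of these, Chn1 lost its call on leaving out WT K80, KO K80 or KO K79, Sipa1l1 on leaving out those or WT K77, and Vav3 without KO K77, KO K79, WT K77 or WT K80 (edgeR adjusted p up to 0.0843, 0.111 and 0.0985).

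Among 19 kinases, adaptors and phosphatases edgeR called 0, limma voom 0 and DESeq2 1 lower. In edgeR 3 of them had an unadjusted p under 0.05, a threshold for which the share over all tested genes was not computed. With the block edgeR called 1 higher, the adaptor gene Grb10 (log2 fold change 0.21, adjusted p = 0.0317), and 1 lower, Ptpro. The lowest p belonged to Ptpro, a phosphatase gene whose product acts on Eph receptors, at 248 ± 23.9 CPM in KO and 308 ± 22.3 CPM in WT libraries (log2 fold change -0.31, SE 0.0824, edgeR adjusted p = 0.0557, and 0.0224 with the block). Of 8 GTPases and effectors 1 rose, Limk1, which encodes a kinase of cofilin, to 123 ± 4.11 CPM in KO, against 106 ± 1.41 CPM in WT libraries (0.22, SE 0.0562, edgeR adjusted p = 0.0472). Limk1 lost its call on leaving out any 1 of the 6 libraries (0.0711 to 0.184) and was not called by DESeq2 or limma voom. Of 5 genes for membrane partners and shedding of ephrin-A, Ntrk2 fell, the neurotrophin receptor gene TrkB whose product interacts with ephrin-A5 in retinal axons. It fell to 176 ± 8.91 CPM in KO, against 255 ± 16.2 CPM in WT libraries (-0.54, SE 0.0656, edgeR adjusted p = 0.00103), in each of the 17 other fits as well. The other 4, Ngfr, Ret, Gfra1 and the ephrin-A sheddase gene Adam10, were not called without the block. With the K number as a block Gfra1 was called higher (log2 fold change 1.18, edgeR adjusted p = 0.0182) and Ngfr lower (-0.79, edgeR adjusted p = 0.0162), while Ret and Adam10 were again not called. Beside these list counts, edgeR called 3.64% of all tested genes higher and 2.62% lower without the block. With the block the shares were 6.13% and 4.45%.

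**Figure D4:**
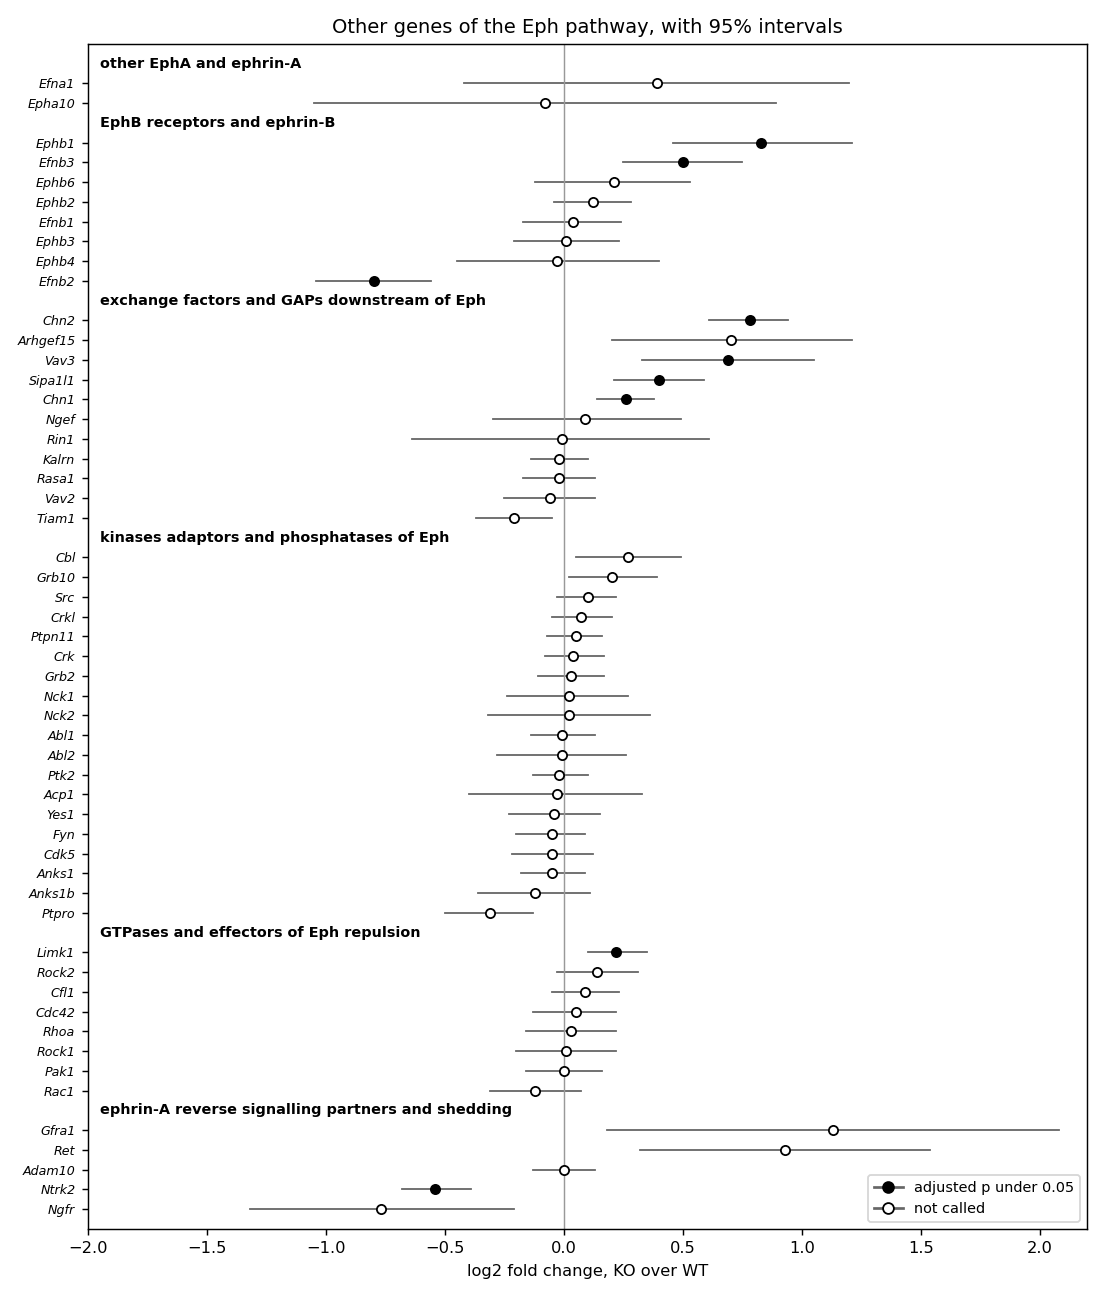
Log2 fold change, KO over WT (x axis), of the 53 other tested genes of the pathway, grouped by role, with 95% intervals and filled circles where the edgeR adjusted p is under 0.05. Filled circles lie right of 0 for 7 genes, among them Ephb1 and Chn2, and left of 0 for Efnb2 and Ntrk2.

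The tested genes most like Epha5 and Efna5 across the 6 libraries were found by the root mean square distance between log2 CPM values centred on each gene's mean. For Epha5 they were Cntnap4 (distance 0.0551), Rara (0.0858), Dlgap2 (0.0863), Igfbp4 (0.0993) and Dpp10 (0.114). Their log2 fold changes ran from -1.37 in Dpp10 to -1.24 in Dlgap2. Cntnap4, a neurexin-family gene, was at 49.6 ± 2.53 CPM in KO and 126 ± 29.5 CPM in WT libraries (SD, n = 3 each). For Efna5 they were Rasa4 (0.0836), Ptprg (0.0900), Zfp423 (0.101), Col28a1 (0.102) and Tle4 (0.103), with log2 fold changes of 0.86 in Tle4 to 1.23 in Col28a1. Ptprg, a receptor phosphatase gene, was at 172 ± 15.1 CPM in KO and 87.5 ± 19.7 CPM in WT libraries. These distances describe the same 6 libraries that gave the fold changes, and Col28a1, at 1.18 ± 0.171 CPM in KO libraries, was not called (edgeR adjusted p = 0.0838).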

How the data were processed

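The deposited files gave raw read counts per gene, and per the submitters' processing notes TopHat 1.2.0, HTSeq 0.5.3p3, DESeq 1.2.2 and build mm9 were used, with no role or order. The count table matched the per-sample files in all 36291 rows. Rows naming no gene (no feature 19.75 to 21.77%, ambiguous 1.94 to 1.99% of counts) were left out. The authors' deposited table holds, per the file headers, the fold as a linear ratio and on the log2 scale, with raw and adjusted p-values. It was read as KO over WT because all 777 calls shared with edgeR had the same sign.

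Counts were tested in R 4.3.3 with edgeR 4.0.16 (TMM, filterByExpr with a minimum count of 10, quasi-likelihood test, Benjamini-Hochberg over 13835 genes at 0.05). SEs and 95% intervals come from the F statistic and are uncertain at low counts. Differences within a K number are between values of log2(CPM + 0.1). Alternatives were RLE and upper-quartile scaling, DESeq2 1.42.0, limma 3.58.1 voom, other filters and thresholds, a block on the K number and each library left out; dropping X and Y genes or both libraries of a number was added after seeing the data. Same-numbered libraries deviated together (correlations of 0.256, 0.197 and 0.175, all above the limit of 0.1). The number was therefore taken to pair them in the block and in the differences within a K number. The main edgeR fit has genotype only, so its calls, SEs and intervals ignore this pairing. Replicates differed beyond sampling noise (chi-square per degree of freedom 3.46 to 4.24 between KO and 5.42 to 9.41 between WT libraries). The labels do not state separate embryos for the libraries. The p-values then reflect the spread among these libraries alone, which may be in part technical. WT K79 held 26109 counts of Xist and 0 of Eif2s3y, against 22 and 860 in WT K77 and 16 and 1252 in WT K80. KO K79 held 13 and 823, so the K79 libraries differed in sex-linked genes as well as in genotype. The size of the technical part was not tested. The tests were tried on simulated counts with the same dispersion for all genes and no effect of the K number. That trial therefore does not speak to the pairing or the unequal spread of replicates in these data.

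Members, lists and the naming rule were chosen with earlier results of these data known. The rule took all members, Zeb2, Efna1, Epha1, Epha2 and Epha10, up to 4 called genes per pathway list by lowest p or the 1 with the lowest p where none was called, and the 5 genes nearest to the called receptor and ligand of lowest p. Other genes were named after their values were seen.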

Additional observations from a re-analysis of the deposited data

How the results depend on the processing

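The number of members called higher in KO was 2 with RLE or upper-quartile scaling, DESeq2, limma voom, a filter of 1 CPM in 3 libraries or X and Y genes dropped. It was 4 with the K number as a replicate block and 1 at an adjusted p under 0.01. It ran from 1 to 3 on leaving out each library. It was 1 without both K77 or both K79 libraries. Without both K80 libraries edgeR called 0, with 3 at an unadjusted p under 0.05 (share over all tested genes not computed). The number called lower was 1 in each of these and 2 at an adjusted p under 0.1. Other pathway genes called higher were 1 to 9 on leaving out each library, 2 without both K77 libraries, 1 without both K80 libraries and 1 at an adjusted p under 0.01, against 7 in the fit reported. Those called lower were 4 with no filter and 5 with the block, against 2, and 2 to 3 on leaving out each library. Over all tested genes the calls moved as well. Calls higher were 504 of 13835 in the fit reported, 848 with the block and 270 to 645 on leaving out each library. They were 291, 385 and 182 without both K77, both K79 or both K80 libraries. Calls lower over all tested genes were 363 in the fit reported, 546 of 21687 with no filter and 615 with the block. On leaving out each library they were 175 to 399. The sign changed in genes that were never called. Leaving out each library, Epha4 ranged from -0.15 to 0.04 (0.02 without KO K80, 0.04 without WT K77), Epha7 from -0.06 to 0.13 and Epha10 from -0.42 to 0.36. Epha7 was at -0.05 without KO K79, -0.06 without WT K77, -0.03 without WT K79, -0.04 without both K77 and -0.08 without both K79 libraries. Epha10 was at 0.02 with limma voom, 0.20 without KO K80, 0.36 without WT K79 and 0.22 without both K79 or both K80 libraries. The cause was not tested. Epha6, Epha8, Efna3, Efna4 and Efna5 had the fewest counts of the members, and the effect of depth on their calls was not tested.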

Other observations

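Gfra1, a co-receptor gene for GDNF with Ret, varied widely among libraries of one genotype and was picked out after its values were seen. It was at 12.5 CPM in KO K77, 29.4 CPM in KO K79 and 30.2 CPM in KO K80, against 6.76 CPM in WT K77, 19.8 CPM in WT K79 and 6.55 CPM in WT K80. Within each K number the KO library was higher, and KO K77 lay below WT K79. Its log2 fold change was 1.13 (SE 0.426, edgeR adjusted p = 0.178, and 0.0182 with the K number as a block). Ret was at 4.88 ± 1.62 CPM in KO and 2.59 ± 0.172 CPM in WT libraries (SD, n = 3 each), with a log2 fold change of 0.93 (edgeR adjusted p = 0.0834), and Ngfr, the p75 receptor gene, had a log2 fold change of -0.77 (edgeR adjusted p = 0.116, and 0.0162 with the block).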
